A study of Mus musculus with 12 samples.

Results

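The genes described here are 10 lectin-like receptor genes of mouse natural killer (NK) cells, which the NKT cells of this study also carry as RNA. They are Klrb1b, Klrb1c and Klrb1f of the NKR-P1 family, Klrd1 with its NKG2 partners Klrc1 and Klrc2, Klrk1 (NKG2D), Klre1, Klri2 and Klrg1. Members were chosen by gene symbol, and all 10 were found among the 23284 genes of the thymus table and again in the liver table. RNA was measured in 12 libraries of sorted CD4- CD8- invariant NKT cells, 3 for each of 4 groups. In the cKO groups the cells came from E8III-Cre mice with a floxed Rag2 gene, in which Rag2 is lost at the CD4+ CD8+ (double-positive, DP) thymocyte stage, and the study calls these cells DN-origin, that is, formed before the DP stage. In the YFP+ groups they came from E8III-Cre mice with a Rosa26-loxP-STOP-loxP reporter, and the study calls them DP-origin. The stated gate does not name YFP. All mice carried E8III-Cre, a Cre driven by a Cd8 enhancer, and were C57BL/6, and each kind of cell was taken from thymus and from liver. The sort used 7AAD, CD45R, CD4, CD8, TCRb and CD1d dimer, and did not use NK1.1, the Klrb1c product. Age, pooling of animals and whether replicates are separate animals are not stated in the labels, and p-values measure only the spread between these libraries, which may be technical. Origin of the cells and mouse line cannot be told apart. The titles and column headers of the liver libraries name one mouse and their description field the other. Titles were used, and every liver direction given here would be turned round if the descriptions hold. Rag2, the floxed gene, was listed at 0 in all 3 liver libraries titled cKO and at 0.985 to 1.37 FPKM in those titled YFP+, which is the direction of the titles, while Rag1, which is not floxed, was lower in the same libraries.

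These receptors sit in the membrane of NK cells and of NKT cells and related T cells, bind ligands on other cells, and pass on inhibitory or activating signals. Inhibitory members such as NKG2A (Klrc1) carry a motif in their tail that recruits phosphatases, while activating members such as NKG2D (Klrk1) and NKG2C (Klrc2) need adaptor proteins with their own signalling motifs. CD94 (Klrd1) is the partner chain without which NKG2A and NKG2C do not reach the surface, and KLRE1 pairs in the same way with the inhibitory KLRI1 or the activating KLRI2.

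The genes lie on chromosome 6, most of them in the NK gene complex. In the GRCm38.p6 annotation their order is Klrg1, Klrb1c, Klrb1b, Klrb1f, Klre1, Klrd1, Klrk1, Klrc2, Klrc1 and Klri2, with other genes between them. Only the order was read, so how far Klrg1 lies from the others is not given here. Klrb1a, Klrc3 and Klri1, which are close relatives outside the 10, lie within the same stretch. RefSeq promoter windows on GRCm38.p6 matched 7 of the 10, all but Klrd1, Klri2 and Klrg1. The windows of a pair that was higher in cKO cells of both tissues (Klre1 and Klrk1) and of a pair whose values were lower in cKO cells of both tissues (Klrb1b and Klrb1c) are printed here, 250 bases 5′ of the annotated start, on the strand of the gene, with Runx matches in capitals.
Klre1, chr6:129577963-129578212, plus strand: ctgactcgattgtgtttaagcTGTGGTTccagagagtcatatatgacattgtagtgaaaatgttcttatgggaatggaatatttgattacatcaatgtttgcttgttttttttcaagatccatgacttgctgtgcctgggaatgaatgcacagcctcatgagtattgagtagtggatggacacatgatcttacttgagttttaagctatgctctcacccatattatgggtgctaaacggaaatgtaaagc
Klrk1, chr6:129623865-129624114, minus strand: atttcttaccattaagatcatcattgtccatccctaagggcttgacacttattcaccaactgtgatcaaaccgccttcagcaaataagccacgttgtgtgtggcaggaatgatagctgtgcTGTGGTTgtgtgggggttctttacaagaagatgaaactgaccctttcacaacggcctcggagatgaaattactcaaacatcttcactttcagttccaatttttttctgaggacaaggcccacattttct
Klrb1b, chr6:128826316-128826565, minus strand: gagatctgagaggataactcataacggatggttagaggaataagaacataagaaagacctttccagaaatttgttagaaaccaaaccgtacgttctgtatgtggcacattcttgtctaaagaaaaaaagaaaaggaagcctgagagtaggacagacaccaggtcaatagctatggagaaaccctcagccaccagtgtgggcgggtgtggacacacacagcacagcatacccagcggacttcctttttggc
Klrb1c, chr6:128788642-128788891, minus strand: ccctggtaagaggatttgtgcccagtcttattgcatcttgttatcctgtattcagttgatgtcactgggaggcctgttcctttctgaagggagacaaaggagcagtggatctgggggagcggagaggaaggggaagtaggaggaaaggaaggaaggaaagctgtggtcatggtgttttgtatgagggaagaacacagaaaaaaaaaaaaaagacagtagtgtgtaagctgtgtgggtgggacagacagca
The letters searched on both strands were TGTGGTT (Runx), GGTGTGA (T-box) and CAGCTG (E-box), which do not overlap one another in these windows. Klre1 held TGTGGTT at bases -229 to -223 from the first of its 2 annotated starts, outside the window of the second, and Klrk1 held it at bases -129 to -123. No other match lay in any window of the 7 genes. Of 32851 promoter windows of the same length, 4.4% held the Runx letters, 3.33% the T-box letters and 13% the E-box letters. A match is a description of these letters and not a site of binding.

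Values are FPKM, fragments scaled to transcript length and to the mapped total of the library, so levels of genes can be set side by side within a tissue. Thymus and liver values were normalized apart, so no level is set against that of the other tissue. The sum of FPKM in a library was 187828 to 194655 in thymus cKO, 198790 to 212688 in thymus YFP+, 450429 to 465304 in liver cKO and 509267 to 558042 in liver YFP+. Absolute read depth is unknown. Rag2 was listed at 0, 0.015 and 0 FPKM in thymus cKO libraries and at 0 in all 3 thymus YFP+ libraries. Rag1 was at most 0.081 FPKM in any thymus library, and at 0.196, 0.146 and 0.223 FPKM in liver cKO libraries against 1.96, 1.33 and 1.89 FPKM in liver YFP+ libraries. Markers of other cells moved with the groups. Summed FPKM of 5 erythroid genes were 0.179 to 108 in thymus cKO against 0.152 to 0.851 in thymus YFP+, with the highest value in cKO replicate 1, and 9.82 to 14.9 in liver cKO against 641 to 742 in liver YFP+. In the liver, DP thymocyte markers summed to 13.3 to 14.8 in cKO against 55.8 to 63.8 in YFP+, myeloid markers to 28.8 to 34.5 in cKO against 70.9 to 102 in YFP+, and B cell markers to 1.97 to 3.36 in cKO against 10.5 to 11.9 in YFP+. Of 5 hepatocyte markers, Trf was lower in cKO, at 4.8 ± 0.968 FPKM in thymus cKO and 27.6 ± 2.37 in thymus YFP+, and at 12.2 ± 2 FPKM in liver cKO and 38.4 ± 2.33 in liver YFP+ (SD, n = 3 each). In the liver the defining genes did not follow it, with Alb at 0.053 to 0.059 FPKM in liver cKO and listed at 0 in all 3 liver YFP+ libraries, and Ttr listed at 0 in all 6 liver libraries. Without thymus cKO replicate 1, the thymus changes described next were 2.1 for Klri2, 1.32 for Klre1, 0.65 for Klrk1, 0.57 for Klrc2 and -0.49 for Klrd1, all called, and -0.21 for Klrb1b, which was then not called (limma adjusted p = 0.0625). The part of the other markers in the results was not tested. In bulk samples, fewer cells of a type and less RNA per cell cannot be told apart.

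In the thymus, 9 of the 10 receptor genes reached the tested level (1 FPKM or more on average in the 6 libraries). Klri2, Klre1, Klrk1 and Klrc2 were higher in cKO cells and Klrd1 and Klrb1b were lower, which is 6 of 9 called at an adjusted p under 0.05 in limma, against 15.7% of all 9097 genes tested. By direction, 4 of 9 were higher against 2.64% of all genes, and 2 of 9 were lower against 13.1%. The libraries of the 2 groups did not overlap for 7 of the 9, against 42.9% of all genes. In the liver all 10 were tested. Klri2, Klre1 and Klrk1 were higher in cKO cells and Klrd1, Klrc1, Klrb1b, Klrb1c and Klrc2 were lower, so that 8 of 10 were called against 27.2% of all 9591 genes. There, 3 of 10 were higher against 7.49% of all genes, 5 of 10 were lower against 19.7%, and 8 of 10 did not overlap against 44.3%. Changes are given on the log2(FPKM + 1) scale relative to the median gene of the same comparison, because the median of all genes was -0.16 in the thymus and -0.11 in the liver for cKO minus YFP+. The test itself used the values as deposited. With median-ratio scaling, the thymus calls over all genes were 452 higher and 360 lower in place of 240 and 1189, and the liver calls 1038 higher and 1041 lower in place of 718 and 1889. The median change of the members was 0.48 in the thymus and -0.07 in the liver on this relative scale. The summed FPKM of the 10 genes was 490 to 542 in thymus cKO libraries against 418 to 447 in thymus YFP+ libraries, and 885 to 922 in liver cKO against 902 to 1000 in liver YFP+. As a share of all FPKM in a library, this was 0.261 to 0.278% in thymus cKO and 0.208 to 0.21% in thymus YFP+. In the liver the share was 0.19 to 0.205% in cKO and 0.177 to 0.179% in YFP+, so it was higher in cKO libraries there too.

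**Figure D1:**
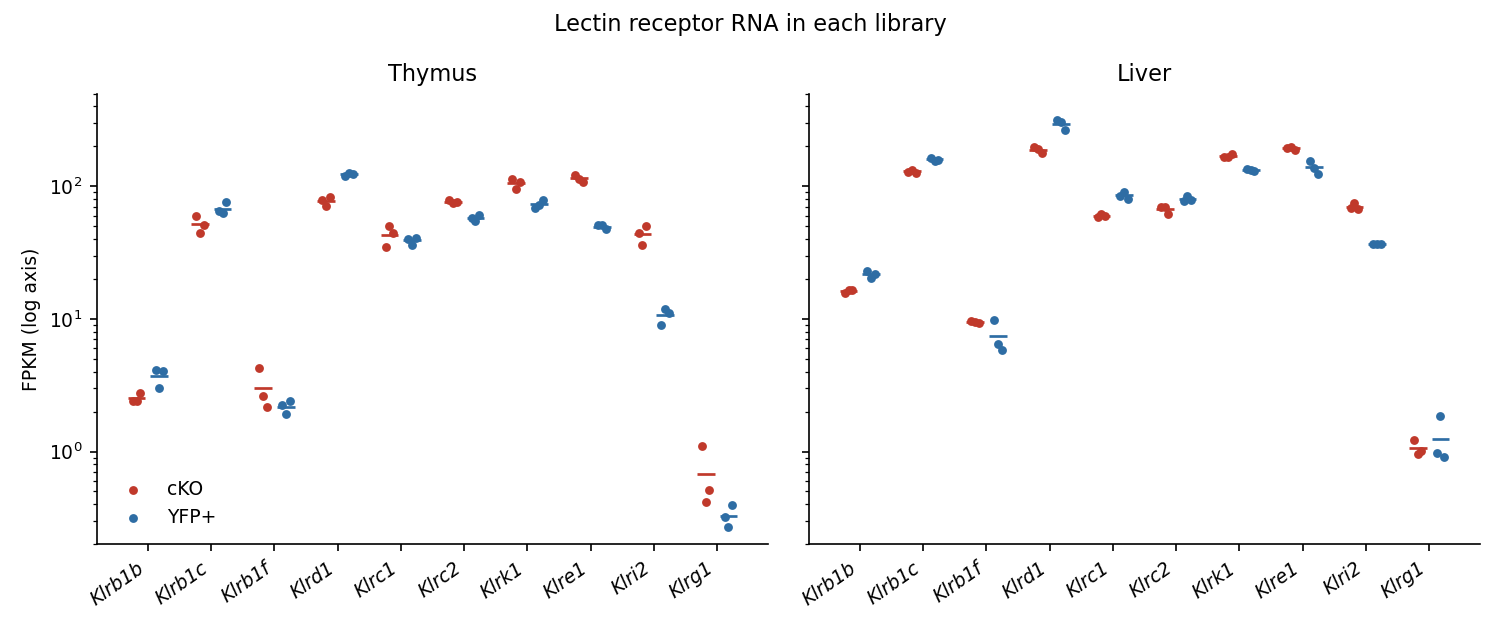
FPKM (log axis) of the 10 receptor genes in each library of thymus (left) and liver (right), with cKO in red and YFP+ in blue, 3 libraries a group, and the mean as a bar. Klri2 lies between 36.1 and 50.4 FPKM in thymus cKO, above 8.97 to 11.9 in thymus YFP+, while Klrd1 lies lower in cKO in both tissues.

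Klri2 had the largest change of the members in both tissues. It encodes the activating partner chain of KLRE1. In the thymus Klri2 had 44.6, 36.1 and 50.4 FPKM in cKO libraries against 8.97, 11.9 and 11.1 FPKM in YFP+ libraries. Every cKO library was above every YFP+ library, with a change of 2.1 (SE 0.14, 95% interval 1.77 to 2.42, limma adjusted p = 0.000179). Liver Klri2 had 68.1, 74.9 and 67.9 FPKM in cKO libraries against 36.7, 36.6 and 36.8 FPKM in YFP+ libraries. The groups were again apart, by 1.03 (SE 0.08, limma adjusted p = 0.000221). Klri1, which encodes the inhibitory partner chain and is not among the 10, was also higher, at 11.8 ± 2.34 FPKM in thymus cKO libraries and 3.12 ± 1.17 FPKM in thymus YFP+ libraries (SD, n = 3 each; change 1.82, limma adjusted p = 0.00201), and at 6.94 ± 0.215 FPKM in liver cKO and 3.5 ± 0.895 in liver YFP+ (change 0.95, limma adjusted p = 0.00622). Both partner chains were thus higher in cKO cells, and Klri2 had the higher level in each group.

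Klre1, the common chain of these pairs, moved the same way. It had 123, 113 and 107 FPKM in thymus cKO libraries against 51.1, 50.6 and 47.4 FPKM in thymus YFP+ libraries. The groups were apart by more than their own spread, with a change of 1.35 (SE 0.08, 95% interval 1.18 to 1.52, limma adjusted p = 0.000106). In the liver Klre1 had 195, 196 and 189 FPKM in cKO libraries against 155, 136 and 125 FPKM in YFP+ libraries, again without overlap (change 0.59, SE 0.09, limma adjusted p = 0.00614). The ratio of Klri2 to Klre1 was 0.384 ± 0.0772 in thymus cKO libraries and 0.216 ± 0.0347 in thymus YFP+ libraries, and 0.363 ± 0.0168 in liver cKO and 0.267 ± 0.0285 in liver YFP+ (SD, n = 3 each). It did not overlap between the groups in either tissue, and the exact two-sided permutation p of 3 against 3 cannot go below 0.1.

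Klrk1 encodes NKG2D, an activating receptor for stress-induced ligands. It had 114, 95.7 and 108 FPKM in thymus cKO libraries against 69.0, 72.6 and 78.9 FPKM in thymus YFP+ libraries. All 3 cKO libraries were higher, with a change of 0.68 (SE 0.09, limma adjusted p = 0.00911). Liver Klrk1 had 166, 167 and 175 FPKM in cKO libraries against 135, 133 and 131 FPKM in YFP+ libraries. The cKO libraries were again all higher, by 0.45 (SE 0.07, limma adjusted p = 0.00704). Klri2, Klre1 and Klrk1 stayed called in the same direction in all 13 alternatives of each tissue, which include leaving out each of the 6 libraries in turn.

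Klrd1 encodes CD94, the chain that NKG2A and NKG2C share, and it was lower in cKO cells of both tissues. In the thymus it had 79.2, 70.9 and 82.3 FPKM in cKO libraries against 120, 126 and 125 FPKM in YFP+ libraries. The groups were well apart (change -0.50, SE 0.08, limma adjusted p = 0.00148). Liver Klrd1 had 197, 191 and 178 FPKM in cKO libraries against 314, 304 and 265 FPKM in YFP+ libraries. The change there was -0.53 (SE 0.09, limma adjusted p = 0.00173), and Klrd1 too was called in all 13 alternatives of each tissue.

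The NKG2 partner genes did not move with Klrd1 in the thymus. Klrc2, for the activating NKG2C, had 78.8, 74.9 and 76.4 FPKM in thymus cKO libraries against 57.7, 54.9 and 60.9 FPKM in thymus YFP+ libraries. It was higher in every cKO library (change 0.57, SE 0.07, limma adjusted p = 0.00968), and so in all 13 alternatives. Klrc1, for the inhibitory NKG2A, had 34.7, 49.7 and 44.6 FPKM in thymus cKO libraries against 40.1, 36.3 and 41.0 FPKM in thymus YFP+ libraries. These overlapped, and the difference of 0.29 (95% interval -0.01 to 0.58) was not called (limma adjusted p = 0.502).

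In the liver both NKG2 genes were lower in cKO cells. Klrc1 had 58.1, 62.2 and 59.8 FPKM in liver cKO libraries against 84.5, 91.1 and 80.5 FPKM in liver YFP+ libraries. The groups did not overlap (change -0.39, SE 0.08, limma adjusted p = 0.0034), and the call was lost only with quantile normalization (limma adjusted p = 0.0603). Klrc2 had 69.6, 69.3 and 62.0 FPKM in liver cKO libraries against 77.8, 84.4 and 78.2 FPKM in liver YFP+ libraries. These did not overlap either, but its change relative to the median gene was -0.15 with a 95% interval of -0.33 to 0.04. Its call (limma adjusted p = 0.0477) was kept in 3 of 13 alternatives, and under quantile normalization the change was -0.0015 (limma adjusted p = 0.929). The adjusted p was 0.28 with median-ratio scaling, 0.0749 with the replicate block, 0.0907, 0.0936 and 0.165 without cKO replicates 1, 2 and 3, and 0.151 and 0.054 without YFP+ replicates 2 and 3. Klrc3, a close relative outside the 10, was not called in either tissue, at 95.0 ± 7.49 FPKM in thymus cKO and 83.5 ± 12.8 in thymus YFP+ (limma adjusted p = 0.242) and 53.2 ± 3.95 in liver cKO and 62.3 ± 2.18 in liver YFP+ (SD, n = 3 each; limma adjusted p = 0.0798). Klrc1, Klrc2 and Klrc3 are close copies, as are the Klrb1 genes, so that the reads Cufflinks divides among them make their single levels uncertain.

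The ratio of Klrc1 to Klrc2 in each library sets the inhibitory chain against the activating one. It was 0.441, 0.664 and 0.584 in thymus cKO libraries against 0.695, 0.66 and 0.673 in thymus YFP+ libraries, which overlapped. In the liver it was 0.835, 0.898 and 0.965 in cKO libraries against 1.09, 1.08 and 1.03 in YFP+ libraries, with no overlap. The ratio of Klrc1 to Klrd1 was 0.439, 0.701 and 0.542 in thymus cKO libraries against 0.335, 0.288 and 0.329 in thymus YFP+ libraries, so every cKO library was higher. In the liver that ratio was 0.319 ± 0.0214 in cKO and 0.291 ± 0.0188 in YFP+ (SD, n = 3 each), and the groups overlapped.

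**Figure D2:**
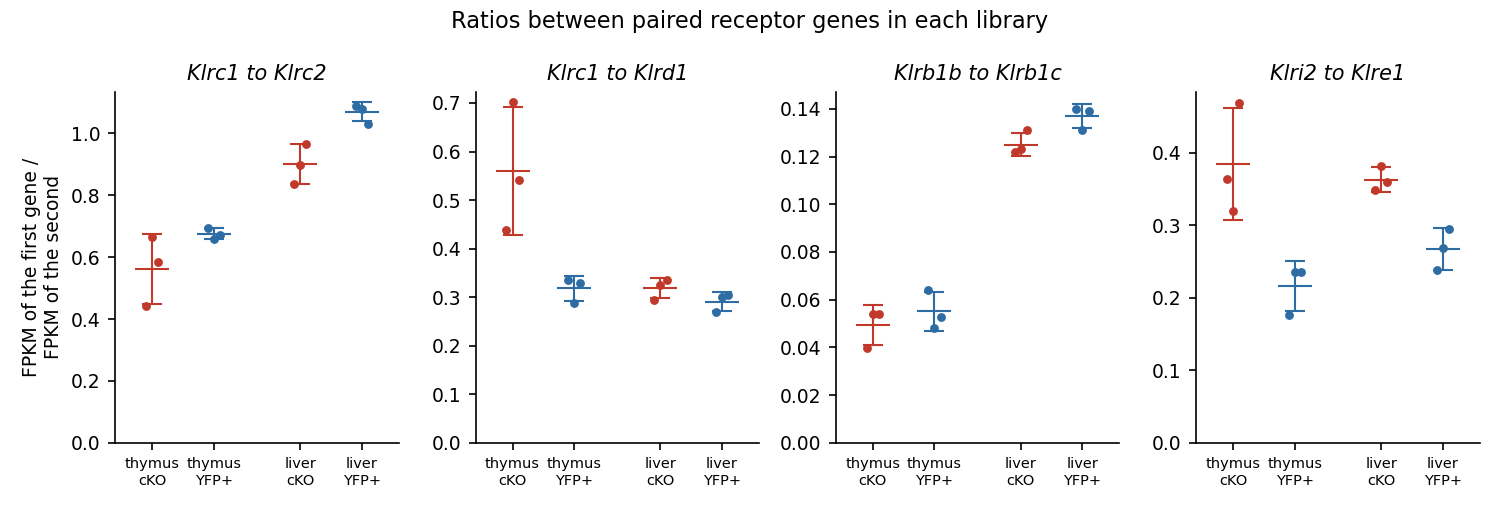
Ratio of the FPKM of 2 receptor genes in each library (linear axes from 0), with the mean and SD of 3 libraries, for cKO (red) left of YFP+ (blue) in thymus and in liver. The ratio of Klri2 to Klre1 is higher in cKO libraries of both tissues, and that of Klrc1 to Klrc2 is lower in cKO libraries of the liver without overlap.

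Of the NKR-P1 genes, Klrb1b encodes the inhibitory NKR-P1B, whose ligand is Clr-b (Clec2d). In the thymus it was among the lowest members, with 2.39, 2.39 and 2.76 FPKM in cKO libraries against 4.15, 3.01 and 4.02 FPKM in YFP+ libraries. The groups did not overlap and the change was -0.26 (95% interval -0.53 to 0.02, limma adjusted p = 0.0493). This call was kept in 3 of 13 alternatives. It reached an adjusted p of 0.212 with median-ratio scaling, 0.0679 with the replicate block, 0.0625, 0.124 and 0.0867 without cKO replicates 1, 2 and 3, and 0.128 and 0.153 without YFP+ replicates 1 and 3. In the liver Klrb1b had 15.6, 16.4 and 16.5 FPKM in cKO libraries against 23, 20.4 and 21.9 FPKM in YFP+ libraries. All cKO libraries were lower (change -0.29, SE 0.09, limma adjusted p = 0.0132), with an adjusted p of 0.0726 under median-ratio scaling, 0.103 under quantile normalization and 0.0544 without cKO replicate 1.

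Klrb1c encodes NK1.1, the activating receptor by which NK and NKT cells of this strain are usually recognized. It had 60.02, 44.3 and 50.9 FPKM in thymus cKO libraries against 64.8, 62.3 and 76.2 FPKM in thymus YFP+ libraries. The groups did not overlap, yet the difference of -0.22 was not called (limma adjusted p = 0.0637), though 3 of 13 alternatives called it: without cKO replicate 1 (-0.31, limma adjusted p = 0.0126), with array weights (0.0205) and with all 12 libraries in 1 fit (0.029). Liver Klrb1c had 128, 133 and 126 FPKM in cKO libraries against 164, 155 and 157 FPKM in YFP+ libraries, again without overlap. The liver change of -0.19 was called (SE 0.07, limma adjusted p = 0.0142), with an adjusted p of 0.157 under median-ratio scaling, 0.674 under quantile normalization, and 0.0615 and 0.0602 without cKO replicates 1 and 3. The ratio of Klrb1b to Klrb1c was 0.0493 ± 0.00826 in thymus cKO and 0.0551 ± 0.00813 in thymus YFP+, and 0.125 ± 0.00472 in liver cKO and 0.137 ± 0.00496 in liver YFP+ (SD, n = 3 each). In the thymus the groups overlapped in this ratio, and in the liver the highest cKO and the lowest YFP+ value were both 0.131.

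Klrb1f, for NKR-P1F, was not called in either tissue. It had 4.29, 2.64 and 2.18 FPKM in thymus cKO libraries against 2.25, 1.91 and 2.39 FPKM in thymus YFP+ libraries, with a difference of 0.48 that went with cKO replicate 1 and was 0.29 without it. In the liver it had 9.66, 9.41 and 9.25 FPKM in cKO libraries against 9.87, 6.50 and 5.81 FPKM in YFP+ libraries. Here YFP+ replicate 1 stood above the other two, and the difference of 0.45 (limma adjusted p = 0.172) was 0.68 and called without it (limma adjusted p = 0.0105). Klrb1a, a relative outside the 10, was lower in cKO cells at 10.9 ± 0.953 FPKM in thymus cKO and 17.5 ± 1.28 in thymus YFP+ (change -0.47, limma adjusted p = 0.00458), and at 7.59 ± 0.47 FPKM in liver cKO and 10.6 ± 1.03 in liver YFP+ (SD, n = 3 each; change -0.32, limma adjusted p = 0.0236, and 0.0942 with median-ratio scaling).

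Klrg1, an inhibitory receptor for cadherins that marks highly differentiated NK and T cells, was the lowest member in each group. It had 1.10, 0.413 and 0.514 FPKM in thymus cKO libraries against 0.319, 0.268 and 0.393 FPKM in thymus YFP+ libraries, below the tested level. The groups did not overlap, and the exact two-sided permutation p was 0.1, the smallest that 3 against 3 can give. In the liver it had 1.23, 0.954 and 1.01 FPKM in cKO libraries against 0.981, 1.84 and 0.906 FPKM in YFP+ libraries. These overlapped, with a difference of 0.01 (95% interval -0.40 to 0.43, limma adjusted p = 0.724).

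**Figure D3:**
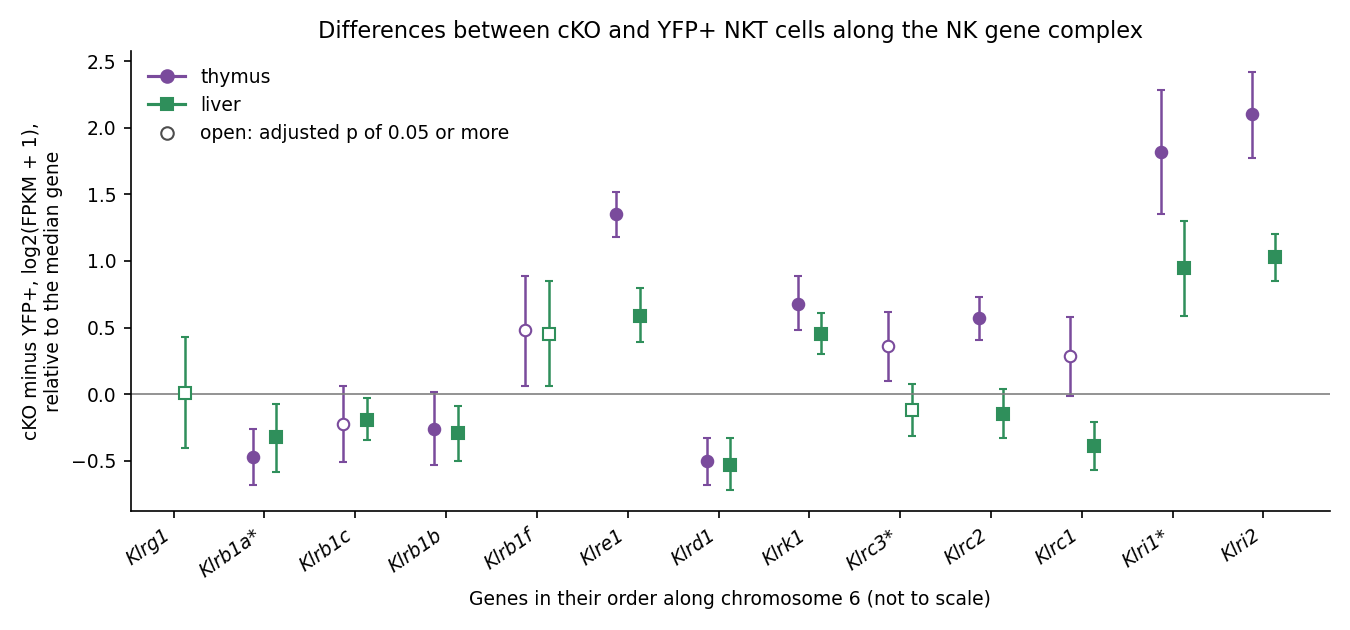
Difference of cKO minus YFP+ in log2(FPKM + 1) relative to the median gene, with its 95% interval (3 libraries a group), for thymus (purple circles) and liver (green squares). Genes stand in their order along chromosome 6, an asterisk marks genes outside the 10, and open symbols have a limma adjusted p of 0.05 or more. Klre1, Klrk1 and Klri2 lie above 0 in both tissues and Klrd1, which lies between Klre1 and Klrk1 in gene order, lies below 0 in both.

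The difference between cKO and YFP+ itself differed between the tissues for 4 of 9 members tested, all lower in liver than in thymus. Tissue cannot be told apart here from the separate tables, named for paired reads (thymus) and for single reads (liver). The 4 lower calls stand against 5.91% of 9739 genes lower, and 0 were higher, against 9.14% of genes. In either direction 15.1% of genes were called. For Klri2 the liver difference minus the thymus difference was -1.07 (SE 0.17, limma adjusted p = 0.00246), for Klre1 -0.76 (SE 0.12, limma adjusted p = 0.00238), for Klrc2 -0.72 (SE 0.10, limma adjusted p = 0.00158) and for Klrc1 -0.68 (SE 0.16, limma adjusted p = 0.0221). Klri2 and Klre1 were higher in cKO cells of both tissues by unequal amounts, whereas Klrc2 was higher in thymus cKO cells and, by a liver call kept in only 3 of 13 alternatives, lower in liver cKO cells. The call for Klrc1 was lost with quantile normalization (limma adjusted p = 0.0733), with the replicate block (0.0503) and without thymus cKO replicate 3 (0.0544), thymus YFP+ replicate 2 (0.0566) or liver YFP+ replicate 2 (0.0555). The 3 other calls held in all 18 alternatives. For Klrk1 the difference between tissues was -0.23 (95% interval -0.47 to 0, limma adjusted p = 0.31). For Klrd1 it was -0.03 (95% interval -0.28 to 0.22) and for Klrb1b -0.04 (95% interval -0.37 to 0.29). For Klrb1c it was 0.03 (95% interval -0.29 to 0.35) and for Klrb1f -0.03 (95% interval -0.62 to 0.56).

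The order of the levels also differed between the groups. In thymus cKO cells the order by mean FPKM was Klre1, Klrk1, Klrd1, Klrc2, Klrb1c, Klri2, Klrc1, Klrb1f, Klrb1b and Klrg1. The ranges of the neighbours Klre1 and Klrk1, Klrd1 and Klrc2, Klrb1c and Klri2, Klri2 and Klrc1, and Klrb1f and Klrb1b overlapped. In thymus YFP+ cells the order was Klrd1, Klrk1, Klrb1c, Klrc2, Klre1, Klrc1, Klri2, Klrb1b, Klrb1f and Klrg1, and of the neighbours only the ranges of Klrk1 and Klrb1c overlapped. In liver cKO cells it was Klre1, Klrd1, Klrk1, Klrb1c, Klri2, Klrc2, Klrc1, Klrb1b, Klrb1f and Klrg1, with overlap of Klre1 and Klrd1, of Klri2 and Klrc2 and of Klrc2 and Klrc1. In liver YFP+ cells it was Klrd1, Klrb1c, Klre1, Klrk1, Klrc1, Klrc2, Klri2, Klrb1b, Klrb1f and Klrg1, with overlap of Klre1 and Klrk1 and of Klrc1 and Klrc2. Klre1 thus had the highest mean of the 10 in cKO cells of both tissues and Klrd1 in YFP+ cells of both.

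Of 13 signalling partners of the receptors, 12 were tested in the thymus, where 1 was higher and 3 were lower in cKO cells, and 12 in the liver, where 4 were higher and 0 lower. Of all genes tested, 2.64% were higher and 13.1% lower in the thymus, and 7.49% higher and 19.7% lower in the liver. The median change was 0.08 in the thymus and 0.26 in the liver. Tyrobp encodes DAP12, the adaptor of NKG2C. It had 18.3, 9.13 and 7.71 FPKM in thymus cKO libraries against 5.42, 4.76 and 4.78 FPKM in thymus YFP+ libraries. All cKO libraries were higher, replicate 1 most of all, and the change of 1.16 (limma adjusted p = 0.0383) was called in 8 of 13 alternatives. The call was lost with no filter on low values (0.113), without cKO replicate 2 (0.0575) and without YFP+ replicate 1, 2 or 3 (0.0867, 0.095 and 0.126). In the liver Tyrobp was not called, with 37.0, 36.7 and 41.5 FPKM in cKO libraries against 48.4, 37.2 and 34.1 FPKM in YFP+ libraries. Hcst, which encodes DAP10, an adaptor of NKG2D, was at 136 ± 16.7 FPKM in thymus cKO and 139 ± 5.56 in thymus YFP+, and at 542 ± 16.2 FPKM in liver cKO and 615 ± 59.8 in liver YFP+ (SD, n = 3 each), and was not called in either tissue (limma adjusted p = 0.788 and 0.153).

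Of the phosphatases that inhibitory receptors recruit, Inpp5d and Ptpn6 went opposite ways in the 2 tissues, and Ptpn11, for SHP-2, was not called in the thymus (limma adjusted p = 0.883), in the liver (0.808) or for the difference between them (0.83). Inpp5d, for SHIP1, was lower in thymus cKO at 6.39 ± 0.288 FPKM against 9.62 ± 0.789 in thymus YFP+ (change -0.36, limma adjusted p = 0.00853). In the liver it was higher in cKO at 6.64 ± 0.559 FPKM against 4.53 ± 0.879 in YFP+ (change 0.58, limma adjusted p = 0.0407, kept in 6 of 13 alternatives). Ptpn6, for SHP-1, was at 81.7 ± 9.39 FPKM in thymus cKO and 104 ± 1.5 in thymus YFP+ (change -0.19, limma adjusted p = 0.0347, kept in 4 of 13 alternatives), and at 134 ± 2.47 FPKM in liver cKO and 105 ± 3.27 in liver YFP+ (SD, n = 3 each; change 0.45, limma adjusted p = 0.00775). The difference between the tissues was 0.94 for Inpp5d (limma adjusted p = 0.00216) and 0.64 for Ptpn6 (limma adjusted p = 0.00168). Of the kinase and adaptor chains, Zap70 was lower in thymus cKO at 47.2 ± 2.87 FPKM against 63.8 ± 5.08 in thymus YFP+ (change -0.26, limma adjusted p = 0.0162, kept in 8 of 13 alternatives), and Cd247 was higher in liver cKO at 13.3 ± 0.277 FPKM against 10.4 ± 0.527 in liver YFP+ (change 0.44, limma adjusted p = 0.0325, kept in 8 of 13 alternatives).

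Of 19 ligand genes, 17 were in the tables. In the thymus 5 were tested, of which 0 were higher and 1 lower in cKO cells, and in the liver 6 were tested, of which 0 were higher and 2 lower. Over all genes, 13.1% were lower in the thymus and 19.7% in the liver. H2-T23 encodes Qa-1, the ligand of the CD94 and NKG2 pairs, and was not called at 261 ± 47 FPKM in thymus cKO and 278 ± 13.1 in thymus YFP+ (limma adjusted p = 0.543) and 555 ± 12.3 FPKM in liver cKO and 625 ± 15.9 in liver YFP+ (limma adjusted p = 0.0782). Clec2i, whose product Clr-g binds NKR-P1F, was lower in liver cKO at 9.46 ± 1.16 FPKM against 23.6 ± 1.62 in liver YFP+ (change -1.13, limma adjusted p = 0.000319). In the thymus it was at 6.33 ± 0.334 FPKM in cKO and 8.69 ± 1.92 in YFP+ and was not called (limma adjusted p = 0.0855). Cdh1, for E-cadherin, a ligand of KLRG1, was lower in cKO cells at 15.4 ± 2.62 FPKM in thymus cKO and 26.5 ± 2.55 in thymus YFP+ (change -0.58, limma adjusted p = 0.00929), and at 6.96 ± 0.516 FPKM in liver cKO and 11.3 ± 2.04 in liver YFP+ (SD, n = 3 each; change -0.50, limma adjusted p = 0.0156, kept in 10 of 13 alternatives). Clec2d, for Clr-b, was not called in the liver, at 2.98 ± 0.806 FPKM in cKO and 3.1 ± 0.916 in YFP+ (SD, n = 3 each; limma adjusted p = 0.902), and was below the tested level in the thymus.

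Of 13 genes for regulators of these receptors, 9 were tested in the thymus, with 1 higher and 5 lower in cKO cells, and 10 in the liver, with 1 higher and 1 lower. Over all genes, 2.64% were higher and 13.1% lower in the thymus, and 7.49% and 19.7% in the liver. Zbtb16, for the NKT transcription factor PLZF, was lower in thymus cKO at 3.76 ± 0.565 FPKM against 12.3 ± 1.26 in thymus YFP+ (change -1.32, limma adjusted p = 0.000238) and was not called in the liver (limma adjusted p = 0.408). Il2rb, the receptor chain for interleukin 15 that NK-like cells depend on, was lower in thymus cKO at 266 ± 13.4 FPKM against 365 ± 28.5 in thymus YFP+ (change -0.29, limma adjusted p = 0.00998, and 0.0758 with median-ratio scaling), and higher in liver cKO at 498 ± 18.7 FPKM against 375 ± 33.8 in liver YFP+ (SD, n = 3 each; change 0.52, limma adjusted p = 0.00857). Id2 was lower in thymus cKO (change -0.58, limma adjusted p = 0.00314). Nfil3 was higher in thymus cKO (change 0.98, limma adjusted p = 0.0382, kept in 6 of 13 alternatives) and lower in liver cKO (change -0.37, limma adjusted p = 0.0407, kept in 2 of 13). Tbx21, for T-bet, was not called in the thymus (65.6 ± 9.13 FPKM in cKO and 73.9 ± 3.96 in YFP+) or in the liver (18.4 ± 0.486 FPKM in cKO and 22.4 ± 3.93 in YFP+; SD, n = 3 each).

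The wider set of 11 other lectin genes, not all placed on the chromosome here, had 9 in the tables. In the thymus 4 were tested with 2 higher and 1 lower, and in the liver 5 with 1 higher and 2 lower. Over all genes, 2.64% were higher and 13.1% lower in the thymus, and 7.49% and 19.7% in the liver. Besides Klri1 and Klrb1a it held Cd69, an early activation receptor, which was higher in thymus cKO at 59.4 ± 11.6 FPKM against 40.6 ± 1.46 in thymus YFP+ (change 0.69, limma adjusted p = 0.0386, kept in 6 of 13 alternatives). In the liver Cd69 was lower in cKO at 59.9 ± 6.17 FPKM against 124 ± 8.73 in YFP+ (SD, n = 3 each; change -0.93, limma adjusted p = 0.000354), and the difference between the tissues was -1.62 (limma adjusted p = 0.00023).

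NK cells and type 1 innate lymphoid cells carry the same receptors, and their markers were read beside them. Of 10 such markers, 7 were tested in the thymus with 1 higher (Tyrobp) and 3 lower (Cd244, Xcl1 and Gzma). Of all genes tested there, 2.64% were higher and 13.1% lower. The summed FPKM of the markers was 153 to 245 in cKO libraries against 270 to 285 in YFP+ libraries. Ncr1, Eomes and Cma1 were below the tested level in the thymus. Their low values do not show that RNA of type 1 innate lymphoid cells was absent, and this was not tested. Ncr1 had 0.343, 0.312 and 0.511 FPKM in cKO libraries against 0.225, 0.536 and 0.249 FPKM in YFP+ libraries, Eomes was at most 0.047 FPKM in any library, and Cma1 was listed at 0 in all 6. In the liver 8 were tested with 2 higher (Ncr1 and Cd244) and 2 lower (Xcl1 and Gzma), against 7.49% and 19.7% of all genes. Xcl1 was at 187 ± 5.55 FPKM in liver cKO and 330 ± 37.2 in liver YFP+ (change -0.70, limma adjusted p = 0.000751). Gzma was at 165 ± 10.1 FPKM in liver cKO and 235 ± 32.3 in liver YFP+ (SD, n = 3 each; change -0.39, limma adjusted p = 0.0102). The summed FPKM was 757 to 791 in cKO libraries against 858 to 1090 in YFP+ libraries. This sum is not scaled to the library total, and Fcer1g, Xcl1 and Gzma had the highest levels in it. Relative to the median gene, the median change of the tested markers was 0.32 in the liver and -0.27 in the thymus. Ncr1, which encodes the NK receptor NKp46, had 2.87, 1.72 and 1.97 FPKM in liver cKO libraries against 0.274, 0.502 and 0.179 FPKM in liver YFP+ libraries (change 1.37, limma adjusted p = 0.00209), and Eomes had 0.552, 0.56 and 0.668 FPKM in liver cKO libraries against 0.372, 0.42 and 0.645 FPKM in liver YFP+ libraries. Cd244 was at 8.49 ± 1.3 FPKM in liver cKO and 4.82 ± 0.601 in liver YFP+ (SD, n = 3 each), with a change of 0.81 (limma adjusted p = 0.00855). Ncr1 and Cd244 were thus higher, and Xcl1 and Gzma lower, in the same liver libraries in which Klri2, Klre1 and Klrk1 were higher. The part of these markers in those results was not tested. Markers of gamma-delta T cells, which also carry NKG2 receptors, were in the tables for 2 of 6 genes listed. They summed to 14.7 to 18 FPKM in liver cKO libraries against 1.97 to 3.46 in liver YFP+ libraries, with both genes, Sox13 (change 2.46) and Cd163l1 (change 1.77), higher. In the thymus these markers summed to 5.08 to 6.45 in cKO libraries against 4.88 to 7.68 in YFP+ libraries, and neither was called. Their part in the liver results was not tested. Markers of NKT and T cells summed to 747 to 777 FPKM in thymus cKO against 870 to 979 in thymus YFP+, and to 2500 to 2530 in liver cKO against 2660 to 3140 in liver YFP+. These sums are not scaled to the total FPKM of a library, which was also lower in cKO. Relative to the median gene, the median change of these markers was -0.08 in the thymus and 0 in the liver.

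**Figure D4:**
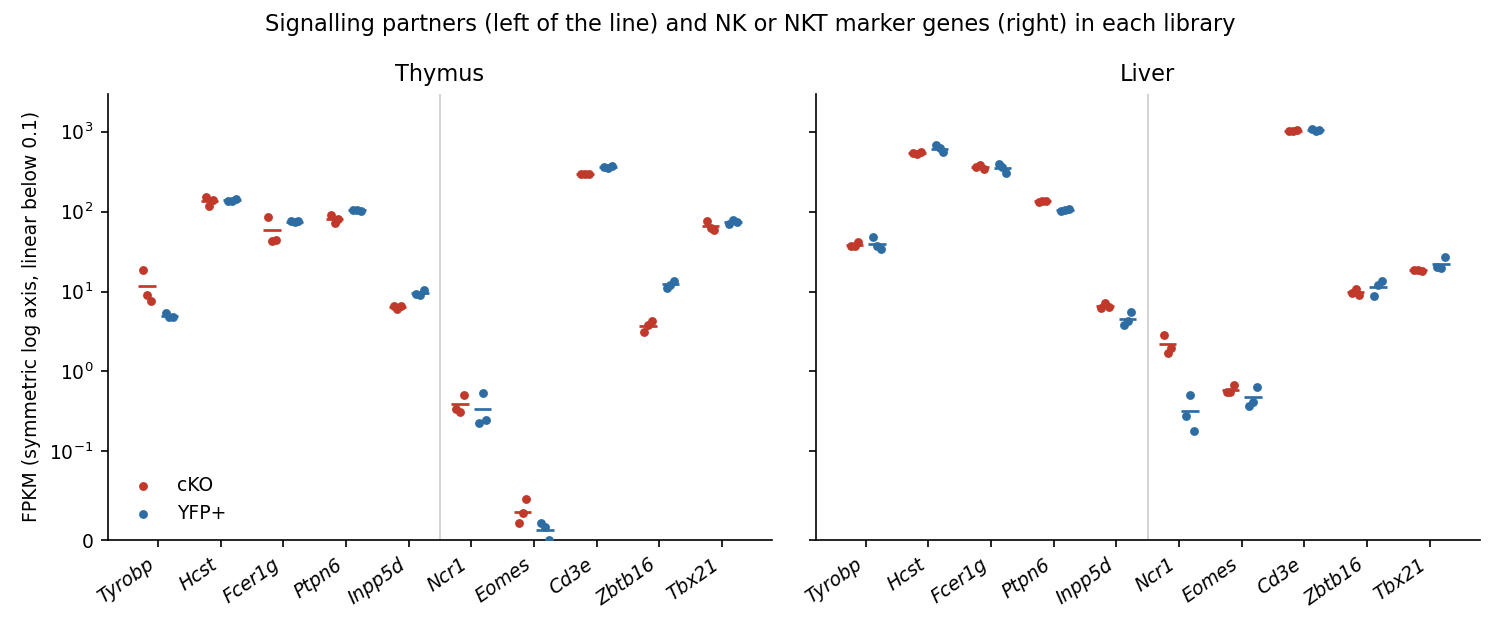
FPKM in each library (symmetric log axis, linear below 0.1) of signalling partners, left of the line, and of NK or NKT marker genes, right of it, for cKO (red) and YFP+ (blue), 3 libraries a group, with the mean as a bar. Thymus Tyrobp is higher in all 3 cKO libraries, Ncr1 is higher in liver cKO at 1.72 to 2.87 against 0.179 to 0.502 FPKM in liver YFP+, and Zbtb16 is lower in thymus cKO.

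Across the 12 libraries, with each tissue centred on its own mean, 6 of the members fell into a set of 3 that went up and down together (Klri2, Klre1, Klrk1) and a set of 3 that went the other way (Klrd1, Klrb1b, Klrb1c). Pearson's r was 0.965 for Klre1 and Klri2, 0.964 for Klri2 and Klrk1 and 0.926 for Klre1 and Klrk1. It was 0.88 for Klrb1b and Klrd1, 0.867 for Klrb1c and Klrd1 and 0.831 for Klrb1b and Klrb1c. Klrd1 against Klre1, Klri2 and Klrk1 gave -0.873, -0.887 and -0.883, and Klrc1 and Klrc2 gave 0.581. Klrc1 and Klrc2 belonged to neither set, with -0.153 and 0.538 against Klre1 and 0.384 and -0.187 against Klrd1. Klrb1f gave 0.532 to 0.656 with the first set and -0.517 with Klrd1. The points share the 4 groups and their libraries, so that any genes which differ between cKO and YFP+ correlate, and no p is given. By the same measure over all genes tested outside the members, Gm5424 (0.981) and Dgkh (0.972) were the most alike to Klri2. They were Arl4c (0.985) and Klra23 (0.98) for Klre1, and Tmem71 (0.947) and Gm5424 (0.941) for Klrk1. For Klrd1 they were Rgs10 (0.99) and Prdx6 (0.973), for Klrb1b Eif4e2 (0.963) and Mir684-2 (0.959), and for Klrb1c Fasl (0.979) and Sdcbp (0.968). For Klrc2 they were Klra10 (0.961) and 2610019F03Rik (0.953), and for Klrc1 Dnajb9 (0.961) and Clk1 (0.946). Over the 6 libraries of a tissue alone the most alike in the thymus were Slc9a7 and Cpox for Klri2 (0.991 for both), Cldn25 and Rapgef1 for Klre1 (0.998 for both), Ostf1 (0.996) and Epsti1 (0.99) for Klrk1, and Mllt3 (0.999) and Stk17b (0.998) for Klrd1. They were Klra10 (0.992) and Crip1 (0.99) for Klrc2, and Alg12 (0.998) and Cabin1 (0.995) for Klrb1b. In the liver alone they were Sv2c and Klra23 for Klri2 (0.999 for both), Csrnp2 (0.994) and Klri1 (0.993) for Klre1, Banp (0.998) and S100a4 (0.997) for Klrk1, and Ube2n and Ccrl2 for Klrd1 (0.998 for both). For Klrc1 they were Prss57 (0.998) and Cirbp (0.996), for Klrc2 Smox (0.995) and Pinx1 (0.992), for Klrb1b Alkbh6 (0.999) and 2810432D09Rik (0.996), and for Klrb1c Ctla2b and Smarce1 (0.998 for both). The 6 points share 2 groups, and each name came from a search over all tested genes outside the members. A search of that size finds a high r by itself, so these names show no link. No gene outside the members was among the 2 most alike to a member in both tissues.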

How the data were processed

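The 12 RNA libraries of sorted NKT cells fall into 4 groups of 3 (cKO and YFP+, thymus and liver). The deposited values are FPKM, 1 table per tissue with 23284 genes, which the authors made with TopHat2 (2.8.0 as given) and Cufflinks 2.1.1 on mm9, per the submitters' processing notes. Per the labels' protocols, 10 ng of total RNA went into a SMARTer Ultra Low Input kit, and TruSeq or ThruPLEX kits made the libraries. Which library had which kit, and whether reads were counted by strand, are not given in the sources used here. FPKM divide by transcript length and mapped total and hold no depth, so only the number of libraries and their spread set the precision, and a listed 0 can be a failed estimate. All columns were mapped to samples by title, and 0 were left unmapped. Pearson's r of log2 values across genes, between libraries of 1 group, was 0.988 to 0.995 for thymus and 0.989 to 0.994 for liver, and no 2 libraries held identical values.

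The test was limma-trend (limma 3.58.1, R 4.3.3) on log2(FPKM + 1), for genes averaging 1 FPKM or more in the libraries fitted, with Benjamini-Hochberg adjustment over all genes tested and a threshold of 0.05. Thymus and liver were fitted apart, and the difference between tissues (liver minus thymus) on all 12 libraries. The pseudocount of 1 makes a change understate that of low genes. Changes are printed relative to the median gene, while p-values belong to the change as fitted, so a called gene can have a relative interval that holds 0. The test was tested on simulated data with 200 changed genes. Of those tested in the thymus, it recovered 61.9% of 1.5-fold, 91.7% of 2-fold and 97.2% of 4-fold changes. In the liver it recovered 37%, 75% and 96.5%. A gene that was not called can therefore still differ by 1.5-fold. Alternatives were a pseudocount of 0.1, no filter, median-ratio scaling, quantile normalization, the replicate number as a block, array weights, all 12 libraries in 1 fit, and leaving out each library. The members, lists and tests were chosen with earlier results of these data known. Named besides the 10 members were up to 3 called, non-overlapping genes per list and tissue by size, a fixed set of partner and marker genes, and close relatives within the gene complex. The 2 genes, outside the members, most alike to each called member were also named. Promoter sequences are from RefSeq on GRCm38.p6, and gene coordinates on mm9 were not used. Python 3.11.15, pandas 2.3.3 and scipy 1.17.1 made the tables.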

Additional observations from a re-analysis of the deposited data

Results flagged for a closer look

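The cKO minus YFP+ difference of 4 members was not the same in liver and thymus by a test of that difference (limma on all 12 libraries). Liver minus thymus, on the log2(FPKM + 1) scale relative to the median gene, it was -1.07 for Klri2, -0.76 for Klre1, -0.72 for Klrc2 and -0.68 for Klrc1. Klrc2 was higher in every thymus cKO library than in every thymus YFP+ library and lower in every liver cKO library than in every liver YFP+ library, though its liver change was -0.0015 with quantile normalization. For Klri2 and Klre1 both tissues had higher values in cKO libraries. If the descriptions and not the titles of the liver libraries hold, the liver differences change sign and these values no longer apply. Rag2, the floxed gene, was listed at 0 in all 3 liver cKO libraries by title, against 1.37, 0.985 and 1.08 FPKM in liver YFP+ libraries, the direction of the titles, and Rag1, which is not floxed, was lower in the same libraries. Thymus and liver also differ in their tables, named for paired and for single reads, and this cannot be told apart from tissue.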

How the results depend on the processing

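Klri2, Klre1, Klrk1 and Klrd1 in both tissues and Klrc2 in the thymus kept their calls and directions in all 13 alternatives of their tissue, and the differences between tissues of Klri2, Klre1 and Klrc2 in all 18. Over all thymus genes, 1429 calls became 801 without a filter, 812 with median-ratio scaling, 826 with quantile normalization, 787 with the replicate block, 2798 with array weights and 472 to 2408 when 1 library was left out (2408 without cKO replicate 1, 472 without YFP+ replicate 3). The 2607 liver calls became 2214 with the block, 3940 with array weights and 1539 to 2640 when 1 library was left out, and the 1466 calls for the difference between tissues 1058, 2634 and 983 to 1700. Of the members, 6 calls in the thymus were 5 with the block and 5 to 6 without 1 library. The 8 in the liver were 5 with median-ratio scaling, 4 with quantile normalization, 7 with the block and 5 to 9 without 1 library. The 4 for the difference were 3 with the block and 3 to 4 without 1 library. Replicate numbers gave no sign of pairing the samples. The deviations of same-numbered libraries from their group means had an r of -0.0465 to 0.00763 (thymus) and -0.0634 to 0.0659 (liver). Differently numbered libraries had an r of -0.0241 to 0.0271 (thymus) and -0.113 to 0.11 (liver). With 3 libraries a group this cannot exclude pairing, and the block values show only how calls move. Results that changed sign were not called in the main fit, though thymus Tbx21 and liver H2-T23, Hcst and Id2 were each called in 2 of 13 alternatives. In the thymus those that changed sign were H2-T23 (-0.09 without a filter, -0.0046 with quantile normalization, -0.05 to 0.16 without 1 library), Hcst (-0.024 without a filter) and Tbx21 (0.018 with the lower pseudocount, 0.021 with median-ratio scaling, -0.094 to 0.07 without 1 library). In the liver, Klrg1 was -0.016 with the lower pseudocount, -0.11 without a filter, -0.021 with median-ratio scaling, -0.052 with quantile normalization, -0.20 with array weights and -0.12 to 0.18 without 1 library. Clec2d (-0.05) and Tyrobp (-0.047) turned without a filter, and H2-T23 (0.049), Hcst (0.013) and Id2 (0.041) with quantile normalization. Without 1 library Clec2d ranged from -0.051 to 0.23, Tyrobp from -0.059 to 0.24, Hcst from -0.17 to 0.026, Id2 from -0.12 to 0.013 and Zbtb16 from -0.2 to 0.015. For the difference between tissues, Klrb1b was 0.041 with the lower pseudocount and 0.013 without a filter, Klrb1f 0.027 without a filter, 0.00033 with median-ratio scaling and 0.25 with array weights, and Klrd1 0.023 without a filter and 0.24 with quantile normalization. Without 1 library Klrb1b ranged from -0.12 to 0.065, Klrb1c from -0.05 to 0.12, Klrb1f from -0.19 to 0.2 and Klrd1 from -0.13 to 0.041. The causes were not tested.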
